A study of Mus musculus with 16 samples.

Results

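The enzymes of the tricarboxylic acid cycle were examined in the left ventricle of mice lacking the nuclear receptor PPARalpha (PPARalpha-/-, KO) and of wild-type (WT) mice, 28 days after a sham operation or after transverse aortic constriction (TAC), in which a band around the aorta raises the pressure the ventricle must work against. They were taken as all probe sets that the array annotation assigns to exactly 1 of the gene symbols Cs, Idh2, Idh3a, Idh3b, Ogdh, Dlst, Suclg1, Fh1 and Mdh2, which gave 22 of the 34945 probe sets with 1 symbol and 9 of 18193 genes. Succinate dehydrogenase, which also belongs to the respiratory chain, is not among them. The 4 groups, KO TAC, WT TAC, KO sham and WT sham, held 4 Affymetrix mouse arrays each, and all animals had undergone surgery. The labels give neither strain, age nor sex, do not say how the PPARalpha allele was made, and do not say that arrays are separate animals, so the spread between arrays may be partly technical.

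The cycle burns the acetyl groups that fatty acids, glucose and ketone bodies all yield, and passes the electrons on to the respiratory chain. The heart, which works without rest and oxidises mainly fatty acids, is packed with mitochondria and holds large amounts of these enzymes. PPARalpha is a fatty acid-activated transcription factor whose best known cardiac targets are genes of fatty acid uptake and oxidation, upstream of the cycle.

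A value called signal is the deposited linear intensity, and each gene was represented by its brightest probe set. A log2 fold change is given ± its standard error from limma, fitted to all 16 arrays, and p-values were adjusted by Benjamini and Hochberg's method over the 10916 genes left after the dimmest 40% were dropped. A gene is said to rise or fall only at an adjusted p under 0.05. All 9 genes passed the filter, as did 21 of the 22 probe sets. The exception was 1430161_at of Dlst, with signals between 7.8 and 188.4. The representative probe sets were each brighter than 97.6% to 99.8% of the probe sets with 1 symbol, a property of the probes as well as of the transcripts, so levels are not compared between genes here.

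As a check of the labels, Ppara averaged a log2 signal of 8.84 in KO TAC against 10.76 in WT TAC (-1.92 ± 0.17, adjusted p = 1.18e-05, limma), and 9.26 in KO sham against 10.96 in WT sham (-1.70 ± 0.17, adjusted p = 5.71e-05, limma). Whether its probes lie in the deleted part is not known here. Median signals of the arrays lay between 108 and 162.6. WT TAC replicate 3 had the highest median, and KO TAC replicates 2 and 3 had the lowest medians and the lowest spike-in signal.

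In the mean over the 9 enzymes, every KO TAC array lay below every array of the other 3 groups. Single enzymes differed, and for Dlst the lowest mean was that of WT TAC. For Mdh2 the mean log2 signal was 15.45 in KO TAC, 15.53 in WT sham, 15.66 in KO sham and 15.85 in WT TAC. For Idh2 it was 14.90, 15.01, 15.18 and 15.21 in the same order. Against WT TAC, 8 of 9 enzymes had a lower mean in KO TAC, with a median log2 fold change of -0.31, against 0.03 over all 10916 genes. The differences were small, at most 1.32-fold. The citrate synthase gene Cs fell (1 of 9), where 2.46% of all genes passed and 1.14% of all genes fell. Between KO sham and WT sham the median was -0.01 and 0 of 9 passed, where 0.742% of all genes did. Dlst was the 1 enzyme with a higher mean log2 signal in KO TAC than in WT TAC.

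**Figure D1:**
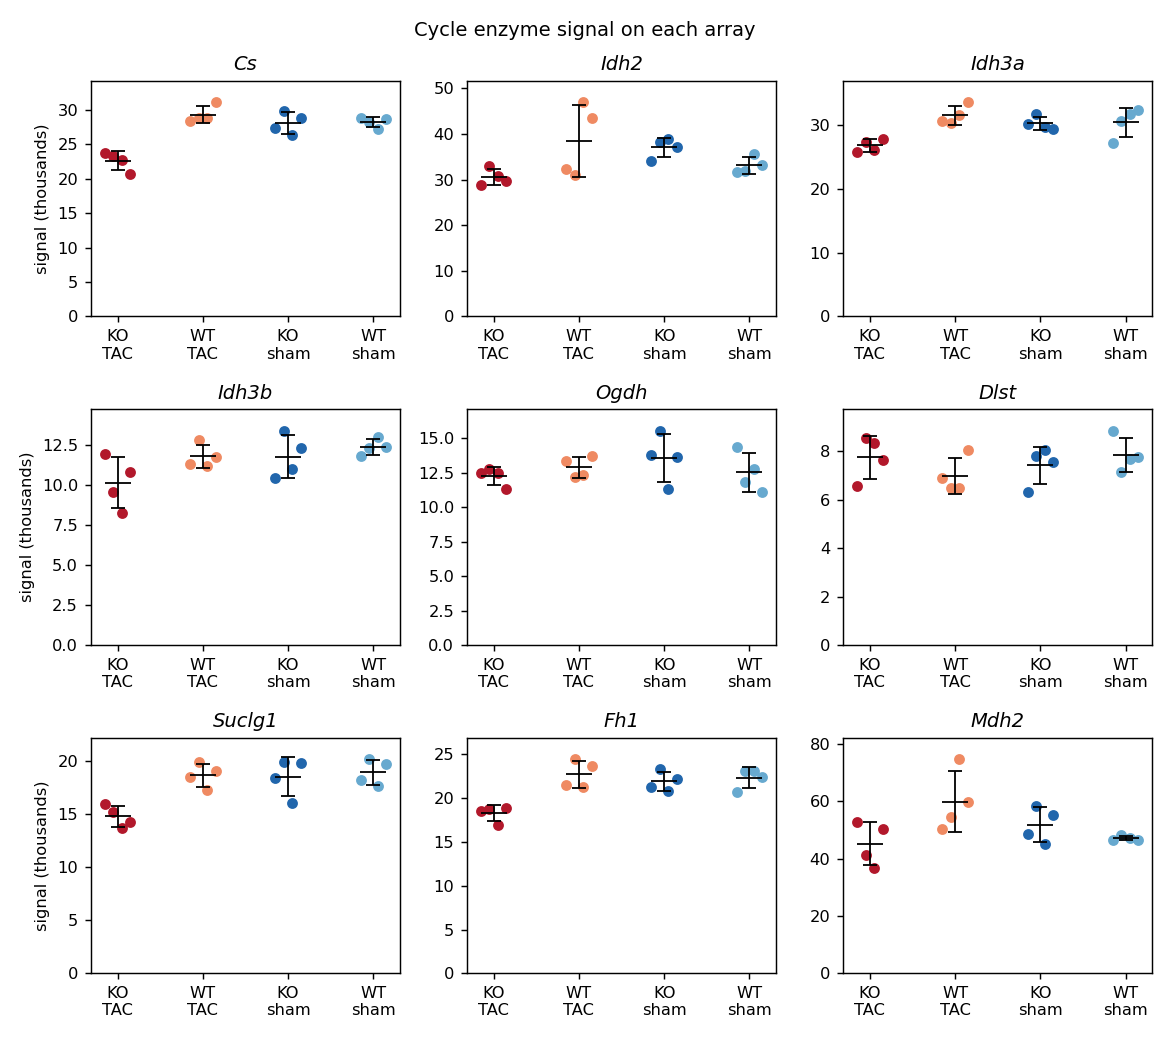
Signal of each cycle enzyme on each array, in linear units, from the brightest probe set of the gene. Points are the 4 arrays of a group, and bars are the mean and SD; for Cs, Suclg1 and Fh1 all 4 KO TAC arrays lie below all WT TAC and KO sham arrays, whereas for Dlst the groups overlap.

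Cs encodes citrate synthase, which joins acetyl-CoA to oxaloacetate and opens the cycle, and whose activity is widely used as a gauge of mitochondrial content. Its signal was 23657, 23347, 22760 and 20619 in KO TAC, against 28312, 28783, 28826 and 31045 in WT TAC. In KO sham it was 27292, 29820, 26315 and 28804, against 28800, 28196, 27251 and 28697 in WT sham. Every KO TAC array lay below every array of the other 3 groups, and the other groups overlapped one another. Cs was 1.30-fold lower in KO TAC than in WT TAC (-0.37 ± 0.08, adjusted p = 0.0248, limma). The call was lost when any of 5 arrays was left out (WT TAC replicate 2 or 4, KO TAC replicate 2, 3 or 4), with adjusted p-values of 0.0522 to 0.0785 by limma, and with arrays centred on their medians the value was -0.18 (adjusted p = 0.409). Against KO sham, Cs in KO TAC gave -0.31 ± 0.08, just short of the threshold (adjusted p = 0.0546, limma). For TAC in WT it gave 0.05 ± 0.08 (95% interval -0.12 to 0.22), and for KO sham against WT sham -0.01 ± 0.08.

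The other 2 probe sets of Cs gave smaller differences. The difference between KO TAC and WT TAC was -0.37 ± 0.08 for 1450667_a_at (adjusted p = 0.0489, limma over 20967 probe sets), -0.22 for 1422578_at (0.282) and -0.12 for 1422577_at (0.609). All 3 were negative, and averaging them gave -0.24 (adjusted p = 0.229). The call over probe sets was lost on leaving out any 1 of the 16 arrays. Probe set 1422578_at had signals of 19442, 21342, 22053 and 20174 in KO TAC, against 23047, 22566, 24544 and 26774 in WT TAC, without overlap. On 1422577_at the same groups overlapped, with 6610 to 8259 in KO TAC and 7494 to 8614 in WT TAC. For KO TAC against KO sham, 1450667_a_at gave -0.31 (adjusted p = 0.101, limma over probe sets), 1422578_at -0.18 (0.428) and 1422577_at 0.03 (0.942).

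The promoter of Cs is shown because Cs alone passed, and that of Dlst, further on, because its mean ran the other way. Each window holds 250 bases before and 50 after the annotated start, from RefSeq on GRCm38.p6, and 8 of the 9 genes have one or more, 13 in all (none for Idh3a). The Cs window is chr10:128337477-128337776 on the + strand, written 5′ to 3′, with capitals for a motif match and therefore none here:
Cs: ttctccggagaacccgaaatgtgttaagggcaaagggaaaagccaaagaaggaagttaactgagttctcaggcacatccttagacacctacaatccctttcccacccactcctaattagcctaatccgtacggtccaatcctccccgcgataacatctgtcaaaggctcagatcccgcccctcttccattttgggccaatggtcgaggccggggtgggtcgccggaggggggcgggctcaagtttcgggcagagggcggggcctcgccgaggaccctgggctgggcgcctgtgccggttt
The motifs searched, on both strands, were TNAAGGTCA of the estrogen-related receptors, 2 copies of AGGTCA with 1 base of any kind between them for PPAR and its partner RXR, and CCGGAAGT of ETS factors such as GABPA. The first and second motif overlap in the letters AGGTCA. The share of all 32851 windows with a match was 1.28% for the first, 0.0396% for the PPAR motif and 3.89% for the ETS motif. Of the 13 windows of the cycle genes, 1 held a match, to the ETS motif in Dlst. These letters in these windows say nothing about binding elsewhere.

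Isocitrate is oxidised by an NAD-dependent enzyme made of several subunits, of which Idh3a encodes the catalytic alpha subunit and Idh3b the beta subunit, and by the NADP-dependent mitochondrial enzyme encoded by Idh2, which supplies NADPH. Idh3a signal was 25880, 27431, 26180 and 27940 in KO TAC, against 30682, 30379, 31595 and 33613 in WT TAC. It was 30259, 31783, 29825 and 29406 in KO sham, against 27217, 30645, 31755 and 32408 in WT sham. The KO TAC arrays lay below all WT TAC and KO sham arrays but overlapped WT sham. The difference from WT TAC was -0.23 ± 0.08 and did not pass (adjusted p = 0.168, limma), and that from KO sham was -0.17 ± 0.08 (0.314). Of the 4 Idh3a probe sets, 3 gave values of -0.29 to -0.13 against WT TAC, and the dim 1447701_x_at gave 0.08.

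Idh3b signal was 11966, 9587, 8271 and 10829 in KO TAC, against 11344, 12850, 11243 and 11798 in WT TAC, with overlap. In sham hearts it spanned 10454 to 13412 in KO and 11852 to 13053 in WT. The KO TAC arrays spread the most, with KO TAC replicate 3 the lowest of all 16. Idh3b gave -0.23 ± 0.12 against WT TAC (adjusted p = 0.35, limma) and -0.22 ± 0.12 against KO sham (0.372). Without KO TAC replicate 3 these values were -0.13 and -0.13. Its 3 probe sets gave -0.50, -0.27 and -0.23 against WT TAC, and -0.44, 0.15 and -0.22 against KO sham in the same order, and none passed.

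Idh2 signal was 28848, 32988, 30768 and 29776 in KO TAC, against 32387, 31059, 46891 and 43372 in WT TAC. It was 34137, 38298, 38808 and 37049 in KO sham, against 31759, 31788, 35614 and 33276 in WT sham. The WT TAC arrays split into a pair near the WT sham arrays and a pair, replicates 3 and 4, above every other array. KO TAC lay below KO sham without overlap but overlapped WT TAC and WT sham. Idh2 gave -0.31 ± 0.12 against WT TAC (adjusted p = 0.232, limma), or -0.20 without WT TAC replicate 3, and -0.28 ± 0.12 against KO sham (0.29). Its second probe set, 1453601_at, was dim, with 57.9 to 242.1 over all arrays, and gave -0.67 against WT TAC (0.497, over probe sets).

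The oxoglutarate dehydrogenase complex turns 2-oxoglutarate into succinyl-CoA. Ogdh encodes its first, rate-setting component, and Dlst the succinyltransferase that forms its core. Ogdh signal was 12463, 12750, 12515 and 11309 in KO TAC, against 13336, 12174, 12315 and 13697 in WT TAC. In sham hearts it spanned 11309 to 15537 in KO and 11129 to 14375 in WT, and all groups overlapped. Ogdh gave -0.07 ± 0.11 against WT TAC (adjusted p = 0.799, limma; 95% interval -0.31 to 0.16) and -0.14 ± 0.11 against KO sham (0.597). With arrays centred on their medians the first value was 0.12. The second, dim probe set of Ogdh, 1445632_at, gave 0.29 against WT TAC and 0.02 against KO sham.

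Dlst signal was 6568, 8538, 8332 and 7624 in KO TAC, against 6893, 6491, 6500 and 8042 in WT TAC. It was 6319, 7802, 8049 and 7560 in KO sham, against 8846, 7147, 7665 and 7770 in WT sham. All groups overlapped, and the highest array was WT sham replicate 1. Dlst gave 0.15 ± 0.12 against WT TAC (adjusted p = 0.564, limma; 95% interval -0.10 to 0.40) and 0.06 ± 0.12 against KO sham (0.862). Its dimmer tested probe sets, 1431011_at and 1437775_at, gave -0.11 and -0.23 against WT TAC, so the positive sign held for the brightest probe set alone among those tested. Its window, chr12:85110583-85110882 on the + strand, written 5′ to 3′, held the ETS motif read on the reverse strand, from base 251 of the window and marked in capitals:
Dlst: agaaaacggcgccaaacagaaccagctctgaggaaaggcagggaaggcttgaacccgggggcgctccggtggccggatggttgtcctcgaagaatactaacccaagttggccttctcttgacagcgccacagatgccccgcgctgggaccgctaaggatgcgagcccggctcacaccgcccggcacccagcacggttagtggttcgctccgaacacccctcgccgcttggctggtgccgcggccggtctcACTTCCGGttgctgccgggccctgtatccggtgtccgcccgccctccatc

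Suclg1 encodes the alpha subunit of succinyl-CoA ligase, which makes a nucleoside triphosphate directly. Its signal was 15957, 15264, 13719 and 14264 in KO TAC, against 18510, 19905, 17308 and 19079 in WT TAC. It was 18393, 19909, 16057 and 19868 in KO sham, against 18281, 20182, 17635 and 19760 in WT sham. Every KO TAC array lay below every other array. The mean in KO TAC was 1.26-fold below that of WT TAC, a difference that missed the threshold (-0.34 ± 0.10, adjusted p = 0.0859, limma), as did that from KO sham (-0.32 ± 0.10, 0.0976).

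Fh1 encodes fumarase, which adds water to fumarate to give malate. Its signal was 18491, 18753, 16861 and 18863 in KO TAC, against 21499, 24375, 21238 and 23623 in WT TAC. It was 21197, 23304, 20814 and 22160 in KO sham, against 20629, 23099, 23081 and 22354 in WT sham. Here too every KO TAC array lay below every other array. Fh1 gave -0.31 ± 0.08 against WT TAC (adjusted p = 0.0703, limma) and -0.26 ± 0.08 against KO sham (0.131).

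Mdh2 encodes mitochondrial malate dehydrogenase, which returns malate to oxaloacetate and also serves the malate-aspartate shuttle. Its signal was 52657, 41302, 36757 and 50438 in KO TAC, against 50471, 54399, 74636 and 59785 in WT TAC. It was 48730, 58447, 45111 and 55228 in KO sham, against 46611, 48285, 47205 and 46527 in WT sham. All 4 WT TAC arrays lay above the narrow WT sham range, and WT TAC replicate 3 was the highest of all arrays, while the KO TAC arrays overlapped each group. Mdh2 had the largest difference in mean between KO TAC and WT TAC among the 9, and a wide error (-0.40 ± 0.14, adjusted p = 0.166, limma; -0.29 without WT TAC replicate 3). For TAC in WT it gave 0.33 ± 0.14 (adjusted p = 0.631, limma; 0.22 without WT TAC replicate 3). The second probe set, 1416478_a_at, gave -0.21 for KO TAC against WT TAC and 0.11 for TAC in WT.

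**Figure D2:**
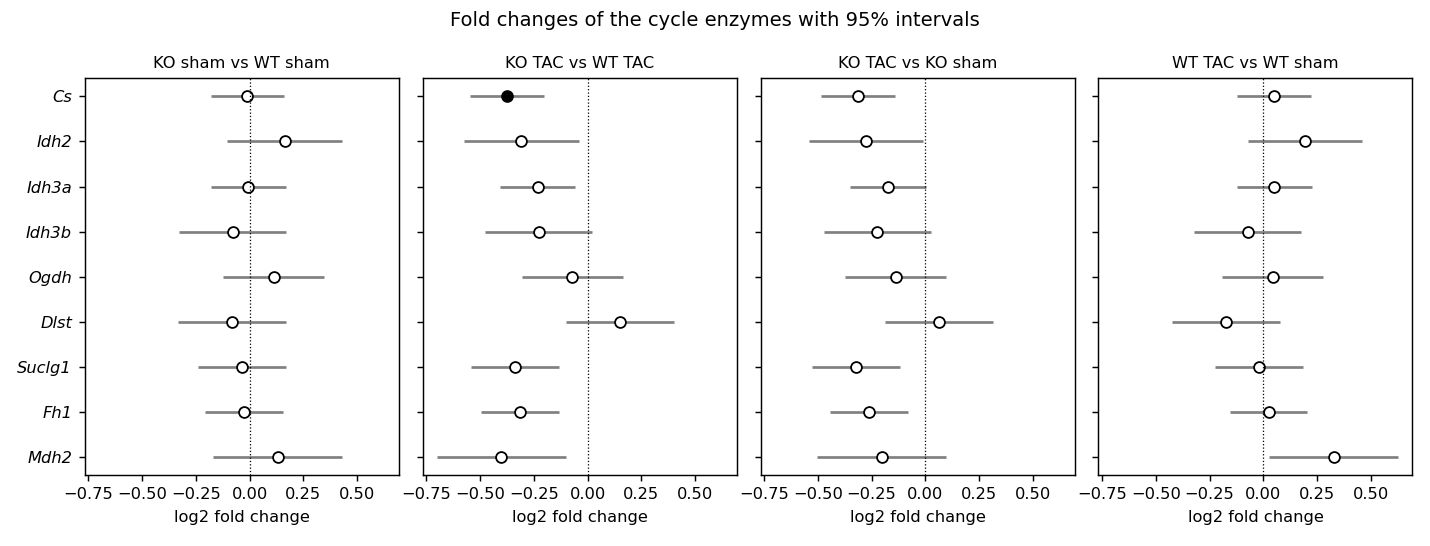
Log2 fold change of each cycle enzyme in 4 comparisons, with 95% intervals from limma over all 16 arrays. A filled point marks the gene that passed at an adjusted p under 0.05, which is Cs in KO TAC against WT TAC; 8 of 9 points lie below 0 in both comparisons that involve KO TAC.

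Between KO TAC and WT TAC, 4 of 9 enzymes (Cs, Idh3a, Suclg1 and Fh1) had KO TAC arrays below all WT TAC arrays, where 4.42% of all genes did so. At an unadjusted p under 0.05 there were 6 of 9, against 16.4% of all genes. Of the 8 cardiomyocyte markers read further on, 5 lay below without overlap and 6 had an unadjusted p under 0.05 by limma. Over probe sets, 18 of 21 were negative, against 47.1% of all probe sets tested, and 1 passed, a Cs probe set, where 1.31% of all probe sets passed.

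Pressure overload in the knockout was read from KO TAC against KO sham. This comparison shares its 4 KO TAC arrays with the one above and gives no separate support to it. Here 0 of 9 passed with limma, where 2.57% of all genes passed. The median was -0.22, against 0.00 over all genes, and 8 of 9 were negative. The arrays did not overlap for 5 of 9 (Cs, Idh2, Idh3a, Suclg1 and Fh1), with KO TAC below, where 5.35% of all genes did so. At an unadjusted p under 0.05 there were 4 of 9, against 15.96% of all genes. The 8 cardiomyocyte markers had a median of -0.21 here (0.00 after quantile normalization), with 7 negative. Of these markers, 2 lay below without overlap and 3 had an unadjusted p under 0.05 by limma. Limma with trend and robust, a variant that lets the spread depend on brightness, called 3 (Cs, Suclg1 and Fh1) in this comparison and the same 3 against WT TAC, where it called 3.90% and 3.88% of all genes. Over probe sets 17 of 21 were negative and 0 passed, where 1.14% of all probe sets passed.

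**Figure D3:**
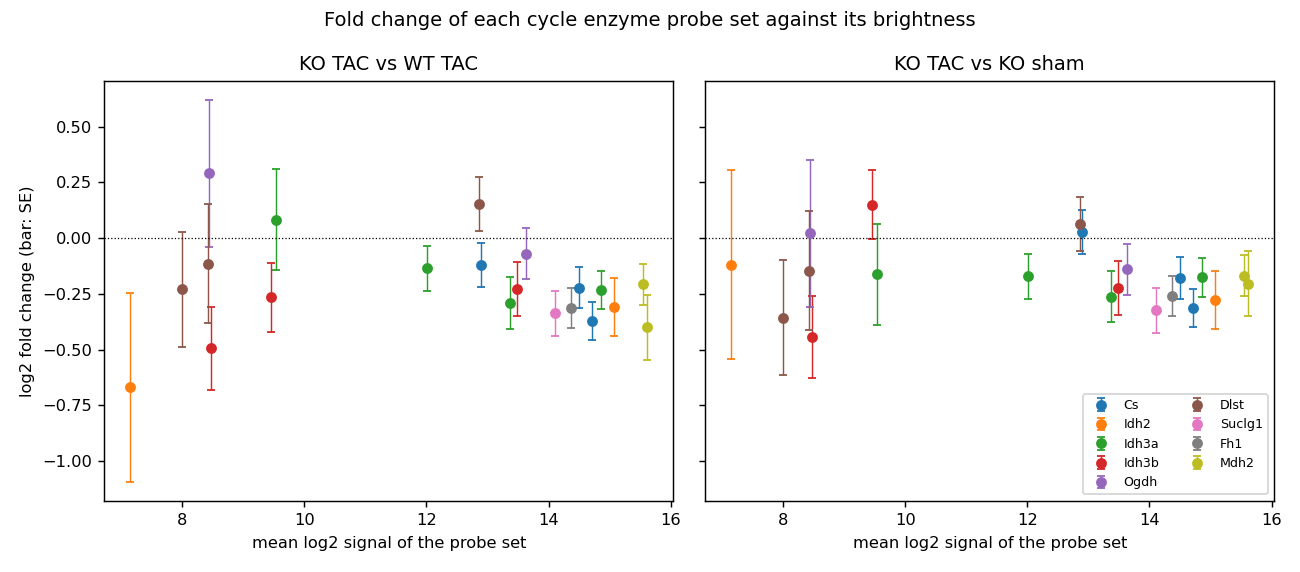
Log2 fold change of each tested probe set of the cycle enzymes, with its standard error, against its mean log2 signal over all arrays. Among the 21 probe sets, 18 lie below 0 for KO TAC against WT TAC and 17 for KO TAC against KO sham, and the dim probe sets on the left have the longest bars.

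In wild-type hearts, 0 of 9 passed for TAC against sham with limma, where 0% of all genes passed. The values ran from -0.17 for Dlst to 0.33 for Mdh2, with a median of 0.04, and Mdh2 was the 1 gene at an unadjusted p under 0.05, against 7.62% of all genes, and the 1 gene whose groups did not overlap, where 2.64% of all genes lay higher without overlap. The 8 cardiomyocyte markers had a median of 0.25 here (-0.05 after quantile normalization), with 7 positive and 5 higher without overlap. The 95% intervals of the 9 enzyme genes allowed falls of up to 1.34-fold and rises of up to 1.54-fold. At baseline, between KO sham and WT sham, 0 of 9 passed with limma, and 0 of 9 reached an unadjusted p under 0.05, against 8.52% of all genes. The values ran from -0.08 for Dlst to 0.16 for Idh2, all 9 overlapped between groups (5.91% of all genes did not), and the intervals allowed falls of up to 1.26-fold and rises of up to 1.35-fold. A miss of the threshold does not show equal levels.

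The difference between the TAC responses of the genotypes (interaction) was negative for 8 of 9 enzymes, with a median of -0.29, against 0.01 over all genes. Limma called 0 of 9, where 0% of all genes passed, and 5 of 9 had an unadjusted p under 0.05, against 10.3% of all genes. The 8 cardiomyocyte markers were all negative too, with a median of -0.47, and 5 of them had an unadjusted p under 0.05 by limma. After quantile normalization the markers' median was 0.02, with 4 of 8 negative, and the enzymes' median was -0.15, with 7 of 9 negative. Cs gave -0.36 ± 0.11 (adjusted p = 0.349), Mdh2 -0.53 ± 0.20 (0.40) and Dlst 0.23 ± 0.17 (0.672). That TAC acted differently on these genes in the genotypes is therefore not shown at this threshold.

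The size of these differences depended on how arrays were scaled. Centring each array on its median moved the median of all genes between KO TAC and WT TAC to 0.22, and that of the 9 enzymes to -0.12, with 7 of 9 negative. Centring shifts all genes of an array alike, so it cannot alter the gap between the enzymes and all genes. Quantile normalization, which gives all arrays one distribution, left -0.13 for the enzymes, with 8 of 9 negative, and 0.03 for all genes, so that the gap was -0.16, against -0.33 as deposited. In KO TAC against KO sham, the enzymes' median was -0.10 after centring and -0.13 after quantile normalization, with 8 of 9 negative in both. For TAC in WT, the enzymes' median was -0.08 after centring, beside -0.12 for all genes, and -0.05 after quantile normalization, beside -0.01 for all genes. No enzyme passed in any comparison under either scaling.

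**Figure D4:**
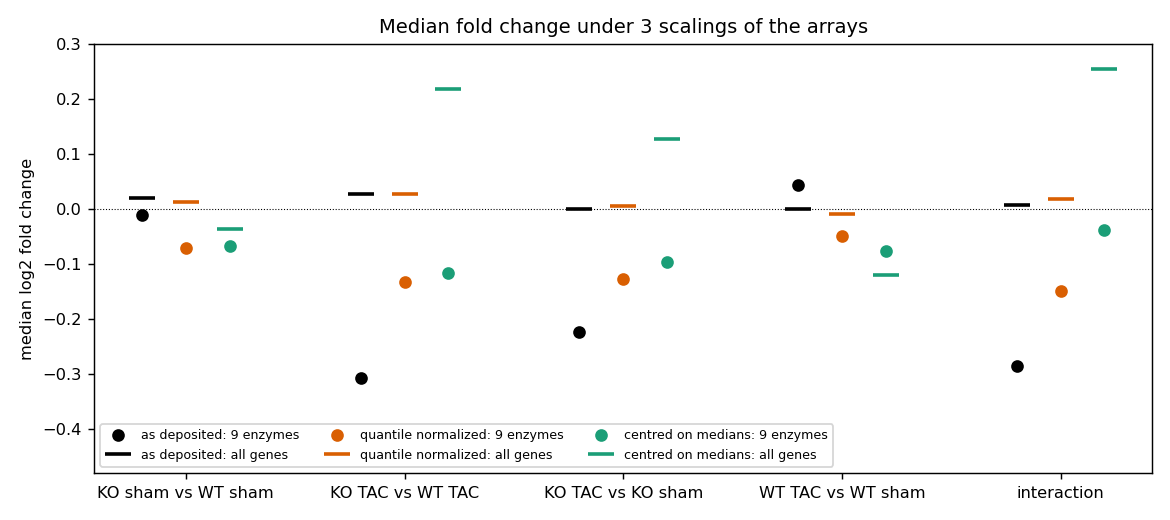
Median log2 fold change of the 9 cycle enzymes (points) and of all genes tested (bars) in 5 comparisons, with the arrays as deposited, quantile normalized or centred on their medians. For KO TAC against WT TAC the enzymes lie at -0.31, -0.13 and -0.12, below the bar of all genes in each scaling.

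Markers of cell types, in 9 lists, and the spike-ins were read beside the enzymes. Of 8 cardiomyocyte markers, all tested and none at the floor, 8 were negative for KO TAC against WT TAC, with a median of -0.33, and 0 passed. Their summed signal was 375592 to 466166 in KO TAC and 478721 to 638909 in WT TAC, without overlap, and 442637 to 510107 in KO sham and 402529 to 473999 in WT sham. After quantile normalization their median was -0.01, with 4 of 8 negative, while that of the enzymes was -0.13. After centring it was -0.14, with 6 of 8 negative, beside -0.12 for the enzymes. Of 7 fibroblast markers, 3 (Col1a2, Col3a1 and Lum) rose in KO TAC, both against WT TAC, where 1.32% of all genes rose, and against KO sham, where 1.58% did, and their summed signal was 58522 to 65824 in KO TAC, 41572 to 54050 in WT TAC, 39803 to 46544 in KO sham and 40604 to 43881 in WT sham. Of 5 macrophage markers, 2 (C1qa and C1qb) passed as higher in KO TAC than in WT TAC, though C1qa did not on leaving out any of 14 arrays, all but WT TAC replicate 2 and WT sham replicate 3. Under the 14 settings other than leaving out an array, C1qa lost its call in 7 and C1qb in 2. Those of C1qb were averaged probe sets (adjusted p = 0.0542, limma) and only the TAC arrays fitted (0.0722). The markers' sums were 15695 to 20046 in KO TAC and 11793 to 14391 in WT TAC, and 15272 to 16264 in KO sham and 12009 to 13653 in WT sham. The 3 atrial markers spread widely within groups, with sums of 753 to 5231 in KO TAC and 260 to 2074 in WT TAC. In sham hearts these sums spanned 1322 to 26325 in KO and 419 to 8129 in WT. Their median was 2.95 for KO TAC against WT TAC, and 0 passed. The 1 blood cell marker tested rose in KO TAC against WT TAC (1.07), where 1.32% of all genes rose. No tested endothelial, smooth muscle, pericyte or fat marker passed in any comparison, and skeletal muscle markers were too dim to test. Of 5 smooth muscle and pericyte markers 4 were tested, but of 4 fat markers only 1. That fat marker gave -0.48 for KO sham against WT sham and -0.37 for KO TAC against WT TAC. The part of these markers in the enzyme values was not tested, and in ventricle RNA fewer cells of a type and less RNA per cell cannot be told apart. The mean log2 signal of 9 spike-in probe sets was 12.0 to 12.68 in KO TAC and 12.62 to 13.04 in WT TAC. With the 3 arrays that lay farthest out in the spike-ins removed (KO TAC replicates 2 and 3, WT TAC replicate 3), all 9 enzymes were negative against WT TAC, with a median of -0.23, and Cs gave -0.41 (adjusted p = 0.159). Col1a2, Col3a1 and Lum then no longer passed against WT TAC (adjusted p = 0.0672 to 0.129, limma). With probe sets averaged, Col1a2 passed neither against WT TAC (adjusted p = 0.121) nor against KO sham (0.72, adjusted p = 0.205, in place of 1.34), and with only the TAC arrays fitted, Col3a1 and Lum did not pass (0.0666 and 0.0696). Lum also missed against WT TAC with spike-in signal as a covariate (adjusted p = 0.0868, limma).

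**Figure D5:**
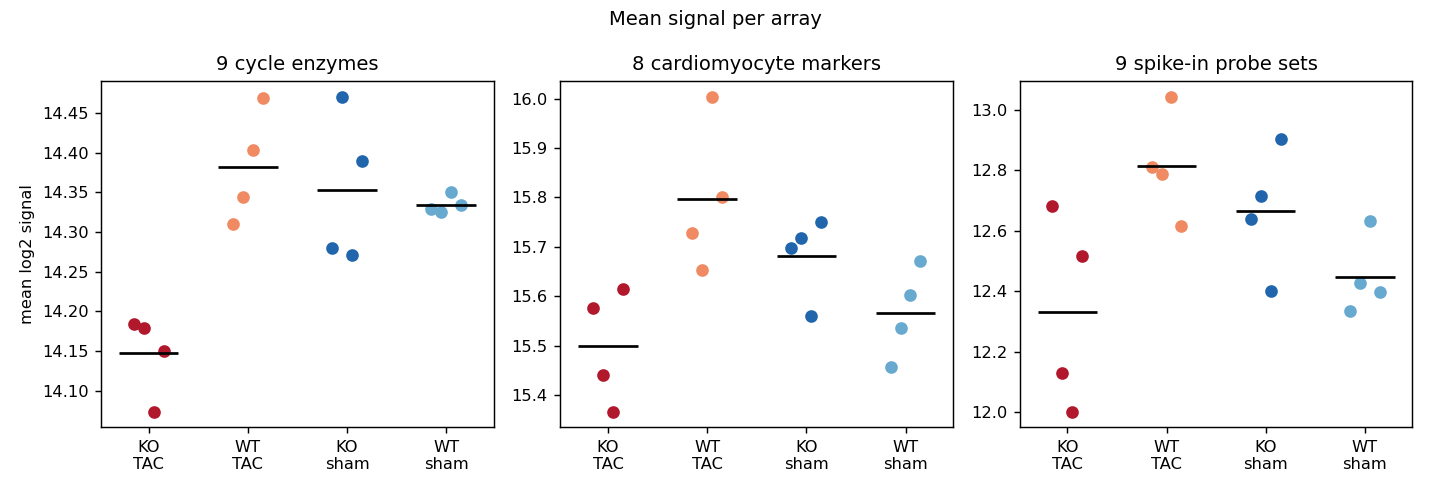
Mean log2 signal per array over the 9 cycle enzymes, 8 cardiomyocyte markers and 9 spike-in probe sets, with a line at each group's mean. The 4 KO TAC arrays lie below all others in the first panel and below all WT TAC arrays in the second. In the third, only KO TAC replicate 1 (12.68) lies above a WT TAC array, that of replicate 4 (12.62).

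Of the genes around the cycle, 43 genes in 7 groups were tested. Among 4 tested partners of the same enzymes (Idh3g, Sucla2, Suclg2 and Dld), 0 passed in any comparison, and all 4 were negative in KO TAC against WT TAC (median -0.17) and against KO sham (-0.17), and also after quantile normalization (-0.08 and -0.11). After centring, which moved the medians of all genes to 0.22 and 0.13, those of the partners were 0.02 and -0.04. Idh3g, the gamma subunit beside Idh3a and Idh3b, came closest, at -0.32 ± 0.08 against KO sham (adjusted p = 0.0584, limma), and passed with trend and robust (0.00977), with array weights (0.045) and with the dimmest 60% left out (0.034). The 4 succinate dehydrogenase genes were also all negative in KO TAC against WT TAC, with a median of -0.28 as deposited, -0.12 after quantile normalization and -0.09 after centring, and 0 passed. The smallest p in that list was that of the iron-sulfur subunit gene Sdhb, in the interaction (-0.62 ± 0.17, adjusted p = 0.29, limma).

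Among 10 genes that bring carbon into the cycle or take it out, 1 fell in KO TAC against WT TAC, 1 in KO TAC against KO sham (0.98% of all genes fell) and 1 in KO sham against WT sham (0.513% of all genes fell). Me1, the cytosolic malic enzyme that makes NADPH, was 1.76-fold lower in KO TAC than in WT TAC (-0.81 ± 0.13, adjusted p = 0.00392, limma) and 2.08-fold lower in KO sham than in WT sham (-1.05 ± 0.13, adjusted p = 0.000601). Mcee, the methylmalonyl-CoA epimerase on the path from propionyl-CoA to succinyl-CoA, was 1.37-fold lower in KO TAC than in KO sham (-0.46 ± 0.10, adjusted p = 0.0246, limma). The call for Mcee was lost when any of 6 arrays was left out (KO TAC or KO sham replicate 2, 3 or 4), with adjusted p-values of 0.0528 to 0.0816 by limma, and after centring Mcee gave -0.33 (0.316). That call was also lost with no filter (adjusted p = 0.0801, limma), averaged probe sets (0.0501) and only the KO arrays fitted (0.115). Neither did Mcee pass without the 3 arrays of outlying spike-ins (0.255) or with spike-in signal as a covariate (0.124). After centring Me1 gave -0.62 in KO TAC against WT TAC (adjusted p = 0.0968).

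In 4 further lists 0 genes passed in any of the 5 comparisons with limma. Of 5 cytosolic counterparts, Mdh1 had the smallest p, in the interaction (-0.56 ± 0.17, adjusted p = 0.335). Of 6 tested inner membrane carriers it was the citrate carrier gene Slc25a1, in KO TAC against WT TAC (0.62 ± 0.18, 0.0944, but 0.81 and 0.0173 after centring and 0.70 and 0.0379 after quantile normalization). Of 7 genes of lipoylation and mitochondrial deacylation it was the lipoyl synthase gene Lias, in KO sham against WT sham (0.23 ± 0.11, 0.587). Of 7 regulators of mitochondrial genes it was Esrra, for TAC in WT (-0.41 ± 0.16, 0.621).

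The genes whose log2 signal over the 16 arrays was most like the mean of the 9 standardised enzyme signals, of 10907 other genes, were Rxrg, with a Pearson likeness of 0.912, Hadh with 0.909, Uqcr11 with 0.904, Ndufv2 with 0.897 and Etfb with 0.894. This is a description over arrays that share their groups and scaling. After each group's mean was taken off, the likeness was 0.586 for Rxrg, 0.73 for Hadh, 0.914 for Uqcr11, 0.793 for Ndufv2 and 0.656 for Etfb. Rxrg encodes a partner receptor of PPARs, Hadh a dehydrogenase of fatty acid oxidation, Uqcr11 and Ndufv2 subunits of the respiratory chain, and Etfb a subunit of the flavoprotein that takes up electrons from fatty acid oxidation. Of the 5, 3 passed as lower in KO TAC than in WT TAC, where 1.14% of all genes fell. All 5 were picked for likeness over these same arrays, where the enzymes' mean was lowest in KO TAC. Their calls therefore follow in part from the choice and give no separate support. Hadh gave -0.67 ± 0.09 (adjusted p = 0.000967, limma) and Etfb -0.56 ± 0.10 (0.00905), and neither call was lost on leaving out any 1 array, though after centring Etfb stood at -0.37 (0.148). Without the 3 arrays of outlying spike-ins both calls were lost (adjusted p = 0.0539 for Hadh and 0.155 for Etfb, limma). That of Etfb was also lost with spike-in signal as a covariate (0.239) and with only the TAC arrays fitted (0.098). Rxrg gave -0.36 ± 0.09 (0.0443), a call that was lost on leaving out any of 15 of the 16 arrays, all but KO sham replicate 2, and that after centring stood at -0.17 (0.46). Against KO sham, Hadh in KO TAC gave -0.44 ± 0.09 and Etfb -0.49 ± 0.10 (adjusted p = 0.019 for both, limma). Both of these calls were lost without KO TAC replicate 2 or 3 or KO sham replicate 2, and that of Etfb also without KO sham replicate 4 (adjusted p = 0.0563 to 0.0687). They were lost as well after centring (adjusted p = 0.242 for Hadh and 0.238 for Etfb, limma), with no filter and with only the arrays compared. The same held without the 3 arrays of outlying spike-ins and with spike-in signal as a covariate. The Hadh call was also lost after quantile normalization (-0.29, adjusted p = 0.0686, limma) and with probe sets averaged (-0.69, 0.108). Among the 36 pairs of the 9 enzymes themselves the same measure ran from -0.51 to 0.90 with a median of 0.45, and over deviations from group means it ran from -0.35 to 0.73 with a median of 0.21.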

How the data were processed

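Total RNA of left ventricle was extracted with Trizol and labelled in one cycle with biotin, per the labels' protocols, and hybridised to Affymetrix arrays with 45101 probe sets. The authors deposited intensity on a linear scale, and the submitters' processing notes name GCOS 1.4 as the software. Arrays were scaled before deposit, since the mean between the 2nd and 98th percentile was 499.6 to 500.0 on all 16. Other settings of that software are not given in the labels.

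A floor of 11.9, the 10th percentile of all signals, was applied before log2. Genes were named by gene ID through the array annotation and a reference of GRCm38.p6, which matched 34741 of 34945 probe sets with 1 symbol. Each gene was its probe set of highest mean, and the dimmest 40% were dropped. Limma 3.58.1 in R 4.3.3 fitted 4 group means, and the 5 comparisons were tested two-sided with Benjamini-Hochberg adjustment. The steps were tested on simulated arrays. Members, lists and tests were chosen with earlier results of these data known. Named were all members, called genes of 7 lists (or the smallest p of a list), Ppara, and the 5 genes most like the members. Macrophage and fibroblast genes came from marker lists. The brightness of a probe limits precision, as does the number of arrays.

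Same-numbered arrays did not deviate together: over 24 pairs their correlation ran from -0.19 to 0.14 and exceeded 0.1 in 5. Alternatives were other scalings, floors, filters and probe set rules, limma with trend and robust, array weights, the compared arrays alone, the replicate number as a block, spike-in signal as a covariate, and arrays left out.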

Additional observations from a re-analysis of the deposited data

How the results depend on the processing

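The 0 of 9 enzymes called for KO sham against WT sham, TAC in WT and the interaction stayed at 0 under every setting run and without each array. For KO TAC against WT TAC the count of 1 (Cs) became 0 with quantile normalization, centring on medians, no filter, averaged probe sets, only the arrays compared, the replicate block (Cs adjusted p = 0.0556), removal of the 3 arrays with outlying spike-ins and the mean spike-in level as a covariate. It became 2 with the dimmest 60% left out, 3 with limma trend and robust, and 0 to 1 without each array, and the Cs value ran from -0.41 to -0.18. For KO TAC against KO sham the count of 0 became 1 with the dimmest 60% left out or array weights (Cs in both) and 3 with limma trend and robust, and stayed 0 without each array. Over probe sets, the count of 1 against WT TAC became 0 with quantile normalization, centring and no filter, 3 with limma trend and robust, and 0 to 0 without each array. That of 0 against KO sham became 2 with limma trend and robust. The causes were not tested. Of the 45 enzyme values, 24 kept their sign under all settings and arrays left out, and no called value changed sign. What same-numbered arrays share beyond the number is not given in the labels. Among other named genes the replicate block ended the calls of Rxrg (adjusted p = 0.0861, limma) and C1qa (0.0758) for KO TAC against WT TAC. Over all genes, the 268 calls for KO TAC against WT TAC became 121 with no filter, 125 with averaged probe sets, 424 with trend and robust, 66 with only the arrays compared, 56 without those 3 arrays and 78 with the covariate. The 280 for KO TAC against KO sham became 117, 122, 426, 79, 55 and 125 in the same order, and 176 with centring, and the 81 for KO sham against WT sham became 42 with centring and 38 with only the arrays compared. Leaving out single arrays gave 133 to 246 calls for KO TAC against WT TAC (133 without KO TAC replicate 3, 135 without KO TAC replicate 2, 146 without WT TAC replicate 4 and 175 without WT TAC replicate 2), and 110 to 318 for KO TAC against KO sham (110 without KO TAC replicate 2, 141 without KO TAC replicate 3, and 182, 157, 154 and 152 without KO TAC replicate 4 and KO sham replicates 2, 3 and 4). Limma trend and robust called 13 genes in the interaction, none of the 9. Centring left 238 higher and 40 lower for KO TAC against WT TAC (144 and 124 as deposited), 158 and 18 for KO TAC against KO sham (173 and 107), and 7 and 35 for KO sham against WT sham (25 and 56). With 4 arrays per group, changes of the size seen here lie near the limit of what passes.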
